A study of Mus musculus with 8 samples.

Results

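Late polysomes are the heavy end of a sucrose gradient, where transcripts carry many ribosomes. RNA from late polysomes of the main olfactory epithelium, the sensory lining of the mouse nose, was compared between 2 libraries from Mex3a conditional knockout (cKO) mice and 2 libraries from wild-type (WT) mice. These 4 libraries were chosen by their titles from the 8 of the series, whose other 4 hold early polysomes under the same lysate names. WT mice were either homozygous (flox/flox) or heterozygous (flox/+) for the floxed Mex3a allele, with no Cre given. Mice of the cKO group were Mex3a flox/flox and carried Cre, and the Cre line is not reported here. All groups therefore carried at least 1 floxed allele, and in the knockout the allele is lost only in cells in which Cre was active and in their descendants. Age and sex of the mice are not given in the sources used here. Tissue of every group was treated with 100 µg/mL cycloheximide, which halts ribosomes on the transcript, at dissection. About 42 fractions of 350 µL were collected, and 50 µL of each of fractions 35 to 42 were pooled as late polysomes and of fractions 27 to 34 as early polysomes. No label says that the 2 libraries of a group came from separate animals, so p-values measure the spread between libraries, which may be technical.

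Mex3a belongs to the MEX3 family of proteins, which bind RNA through KH domains and carry a RING domain of the ubiquitin ligase type, and it is known as a marker of stem and progenitor cells in several epithelia. In the olfactory epithelium, globose basal cells divide and give rise to immature neurons, which extend an axon, choose a single olfactory receptor gene and mature into cells that express Omp. The amount of an mRNA in polysomes follows both how much of it the tissue holds and how heavily it is loaded with ribosomes. No total RNA was analysed here, so these cannot be told apart. In bulk tissue, fewer cells of a type and less RNA per cell cannot be told apart either.

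Levels are given as scaled TPM: the deposited TPM (transcripts per 1000000), which correct for transcript length and library size, divided by a scaling factor of each library (1.048 and 1.062 in WT, 1.009 and 1.047 in cKO late libraries). Values are listed in the order WT replicates 1 and 2, then cKO replicates 1 and 2. Whole reads inferred from the steps of the TPM values sum to 12341527 and 12771079 in WT and to 10289412 and 7776792 in cKO late libraries. The log2 levels of the WT replicates had a correlation of 0.985 over genes, and those of the cKO replicates 0.978. Differences are cKO minus WT on log2(scaled TPM + 1), tested with limma over the 16097 genes with a mean TPM of at least 1. Gene lists were set from textbook markers with earlier results of these data known, and are described by counts.

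Markers of mature neurons and supporting cells of the labelled tissue were abundant, and markers of other tissues were also present. Omp, the marker of mature olfactory neurons, stood at 2553, 2803, 2812 and 2329.9, and Cyp2g1 of sustentacular (supporting) cells at 2648, 2899, 2933 and 3266. Ibsp, a gene of bone matrix, stood at 2582 to 3011, while the muscle gene Ckm did not exceed 1.25 and the oligodendrocyte gene Mog did not exceed 0.208. Others of these lists were higher: Acta1 reached 6.89 and Acta2 stood at 450 to 552 in the muscle list. Slc17a7 and Gad1 of central neurons reached 7.44 and 5.10. All 4 Y-linked genes of the list were higher in both cKO libraries. Among them Ddx3y, a helicase gene on the Y chromosome, stood at 14.6, 12.0, 22.7 and 15.8, and Xist, which coats the inactive X, at 1.72, 1.67, 0.695 and 0.573. In both genes the WT and cKO libraries did not overlap, with unadjusted p of 0.035 and 0.021 by limma, so the sex composition of the lysates and the genotype cannot be told apart.

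Mex3a, the targeted gene, lies at chr3:88531946-88541394 (GRCm38, RefSeq). It stood at 88.9 and 90.03 scaled TPM in WT and at 11.0 and 13.2 in cKO late polysomes. Both cKO libraries lay far below both WT libraries. The WT mean was 89.5 ± 0.813 (SD, n = 2) and the cKO mean 12.1 ± 1.57 (SD, n = 2), so 13.5% of the WT level remained. The difference was -2.80 (SE 0.18, adjusted p = 0.0028 by limma with Benjamini-Hochberg adjustment), on 215 to 2411 reads per library. The adjusted p was 0.0902 without WT late replicate 1 and 0.0946 without WT late replicate 2, with the difference at -2.80 and -2.79.

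The other 3 members of the family stood higher in cKO. Mex3b was at 27.4, 24.9, 42.7 and 47.1, Mex3c at 59.0, 56.1, 72.1 and 73.5, and Mex3d at 28.7, 30.4, 37.3 and 45.6. In each of them both cKO libraries exceeded both WT libraries. The differences were 0.76 (SE 0.10) for Mex3b, 0.33 (SE 0.11) for Mex3c and 0.47 (SE 0.12) for Mex3d, with limma adjusted p of 0.11, 0.42 and 0.36. Mex3b passed the test on inferred whole reads described next (adjusted p = 0.027 by voom, with a range of 0.027 to 0.594 over 21 alternatives). Over those alternatives the difference stayed above 0 in all 3 genes, at 0.69 to 0.83 for Mex3b, 0.30 to 0.37 for Mex3c and 0.33 to 0.61 for Mex3d. TPM corrects for length, so levels can be compared between genes: in WT Mex3a was the highest of the 4, and in cKO the lowest.

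Across all genes, 2 of 16097 passed an adjusted p of 0.05 by limma (0.0124%), Mex3a and Mir6541, both lower in cKO. At an unadjusted p under 0.05 were 1506 genes (9.36%), 804 higher (4.99%) and 702 lower (4.36%). Both cKO libraries lay above both WT libraries in 3305 genes (20.5%) and below them in 3240 (20.1%). A second test, voom on the inferred whole reads, gives genes with few reads less weight and called 15 of 16085 genes (0.0933%), 5 higher (0.0311%) and 10 lower (0.0622%). All 15 had the same direction by limma and libraries that did not overlap. For the 14 other than Mex3a the adjusted p was 0.003 to 0.042 by voom and 0.0957 to 0.346 by limma, and its largest value over the alternatives was 0.594 to 0.984. Of the genes called by voom, Mex3a alone passed by limma too. With 2 libraries against 2, an exact permutation test of a single gene cannot go below a two-sided p of 0.333. On simulated libraries with 200 genes changed 3-fold, limma recovered 195 with 24 false calls and voom 198 with 15. The simulation set the same spread for every gene and changed only well-covered genes. It therefore does not show what share of real changes these libraries would reveal, least of all among genes with few reads.

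**Figure D1:**
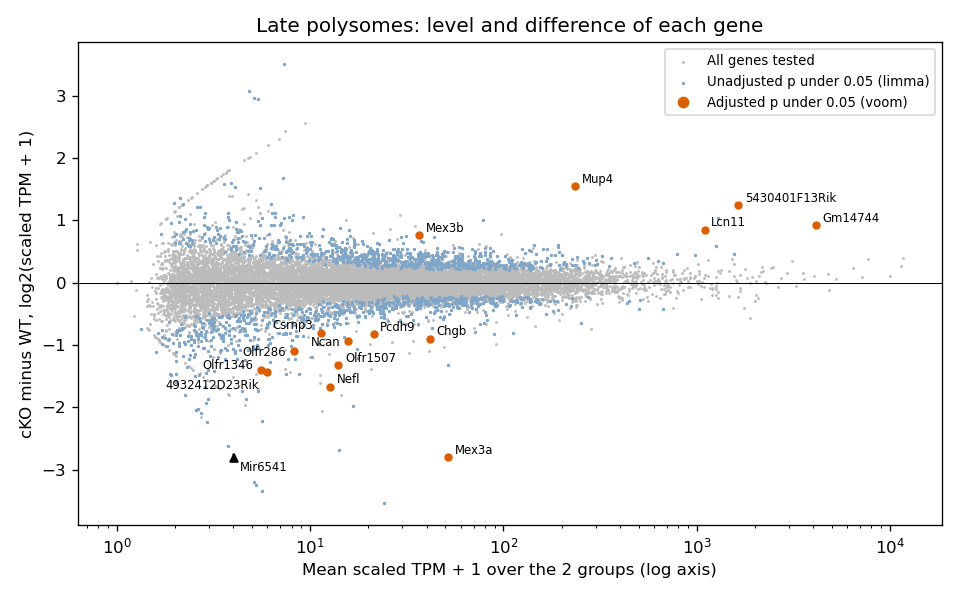
Each point is a gene tested in late polysomes, with its mean scaled TPM + 1 over the groups (horizontal, log axis) and the difference cKO minus WT on log2(scaled TPM + 1) (vertical). Orange points passed an adjusted p of 0.05 by voom, the black triangle is Mir6541, and Mex3a stands at -2.80 among genes of its level.

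The genes that rose by voom included carriers secreted in the nose. Mup4, a lipocalin of the major urinary protein family that binds small odorous molecules, was at 112, 124, 302 and 401, 2.98-fold higher in cKO. Both cKO libraries exceeded both WT libraries, with a difference of 1.55 (SE 0.20, limma adjusted p = 0.096, voom adjusted p = 0.0053, range over 21 alternatives 0.0053 to 0.681). Lcn11, another lipocalin gene, was at 769.8, 795.6, 1467 and 1359.5.

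Gm14744, which RefSeq also lists as an odorant-binding protein gene (Obp1f), was at 2705, 3008, 5899 and 4989. The protein-coding gene 5430401F13Rik was at 1018, 929, 2515 and 2115. In all 3 the cKO libraries were above the WT libraries, by 1.81-fold for Lcn11, 1.91-fold for Gm14744 and 2.38-fold for 5430401F13Rik. The differences were 0.85 (SE 0.13), 0.93 (SE 0.23) and 1.24 (SE 0.19). These 4 genes had 435 to 17431 reads per late library, and Mex3b was the remaining gene that rose.

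The genes that fell by voom included neuronal ones. Nefl, the light neurofilament chain of axons, was at 19.8, 16.6, 4.06 and 6.20. Its cKO libraries lay well below its WT libraries, 3.55-fold lower on average, with a difference of -1.67 (SE 0.20, limma adjusted p = 0.096, voom adjusted p = 0.011, range over 21 alternatives 0.011 to 0.681). Without cKO late replicate 2, Nefl also passed by limma. Chgb, a granin of dense-core secretory granules, was at 55.5, 50.7, 30.0 and 26.1, and did not overlap between the groups (difference -0.90, SE 0.14).

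Ncan, a proteoglycan of the neural matrix, was at 21.9, 17.5, 9.82 and 9.74, and Pcdh9, a cell adhesion protocadherin, at 26.4, 26.0, 14.8 and 13.9. Csrnp3, a nuclear protein, was at 13.8, 13.3, 7.29 and 7.38. The long noncoding RNA 4932412D23Rik was at 7.77, 7.74, 2.36 and 2.13. In these 4 genes the levels were 1.82-fold to 3.45-fold lower in cKO, with differences of -0.94 (SE 0.17), -0.82 (SE 0.12), -0.80 (SE 0.13) and -1.43 (SE 0.17). The kit keeps strand, but whether the authors' counting used it is not given in the sources used here, which bears on noncoding genes that overlap others. The remaining 3 genes that fell were the receptors Olfr1507, Olfr1346 and Olfr286, described with their family.

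**Figure D2:**
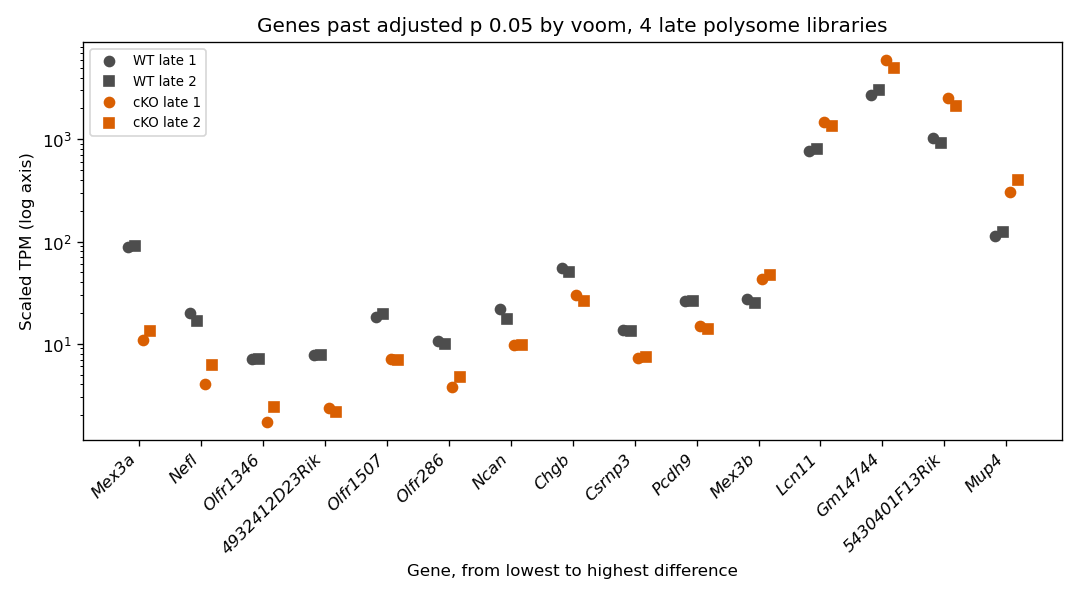
Scaled TPM (log axis) of the 15 genes past an adjusted p of 0.05 by voom in each late library, WT in grey and cKO in orange, circles for replicate 1 and squares for replicate 2. In all 15 genes the WT and cKO libraries are separate, with Mex3a at 11.0 and 13.2 in cKO against 88.9 and 90.03 in WT.

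Among genes of at least 5 TPM and 20 reads at an unadjusted p under 0.05 with separate groups, the 12 with the highest and the 12 with the lowest differences were examined, leaving out placeholder symbols such as 5430401F13Rik. None of those not yet named passed either test after adjustment. Higher in cKO were 3 genes of secreted proteins: Bpifb5, of a family of lipid-binding proteins of nasal secretions, at 864, 819, 1737 and 1709.9; Chil4, a chitinase-like protein, at 42.0, 58.1, 72.1 and 139; and Pnliprp1, a lipase-related protein, at 3.62, 4.53, 9.87 and 9.19. A4gnt, which adds a terminal sugar to mucins, was at 3.03, 4.62, 7.66 and 8.87. In each of these 4 genes both cKO libraries were the higher.

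Gsg2 (haspin), a kinase that marks histone H3 in mitosis, was at 3.85, 4.83, 8.28 and 11.2, and Bcl3, a nuclear member of the IkB family, at 3.93, 3.64, 7.23 and 9.07. Nrtn, the neurotrophic factor neurturin, was at 2.65, 4.43, 6.88 and 7.97, on 12 to 26 reads. Paqr6, a membrane receptor of the progestin receptor family, was at 1.22, 4.78, 7.29 and 7.85, so its WT replicates differed by more than its WT replicate 2 did from cKO. The others were the receptors Olfr692 and Olfr239, and the genes Bglap3 and Mup4. Differences of the 12 were 0.87 to 1.55.

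On the lower side were Cplx1 and Sncb, presynaptic proteins that regulate vesicle release (complexin 1) or bind to vesicles (beta-synuclein). Cplx1 was at 8.95, 5.51, 1.98 and 0.970 (difference -1.73, SE 0.48), and Sncb at 12.8, 7.21, 3.85 and 2.07 (-1.46, SE 0.47). Their WT replicates differed widely too, with replicate 1 the higher in each genotype. Slc17a7, a vesicular glutamate transporter of central neurons, followed the same order of libraries at 7.44, 3.89, 3.315 and 1.69, and Gad1 of inhibitory neurons stood at 5.10, 1.87, 2.77 and 1.21. Nefl, at 4.06 and 6.20 in cKO, did not follow it, while Chgb and Pcdh9 did with smaller gaps between replicates. The part of central nervous tissue in the Cplx1 and Sncb values was not tested.

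Gucy1b2, a guanylyl cyclase subunit of a rare type of olfactory neuron, was at 4.48, 7.22, 1.30 and 0.782 (difference -1.73, SE 0.30). Pcsk1n, a granin-like inhibitor of prohormone processing, was at 9.26, 6.39, 2.59 and 2.58, and Fez1, an adaptor of axonal transport, at 27.0, 19.8, 13.5 and 6.62. The others were the receptors Olfr726, Olfr742 and Olfr1321, and the genes Mex3a, Nefl, Olfr1346 and Olfr1507 already named as calls.

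The neurofilament and granin genes did not share a direction. Of 14 tested, 4 were lower and 1 higher at an unadjusted p under 0.05, against 4.36% lower and 4.99% higher over all genes. The median difference was -0.06 (-0.001 over all genes), -0.02 without cKO late replicate 1, -0.23 without cKO late replicate 2 and -0.14 without WT late replicate 2. It was -0.18 over members of at least 5 TPM, -0.10 by voom and -0.09 without scaling. Prph, a neuronal intermediate filament like Nefl, was higher, at 79.3, 65.8, 102 and 103 (difference 0.50, SE 0.10, limma adjusted p = 0.31). Chga, another granin, was at 1449, 1544, 1654 and 1566, with separate groups but a difference of 0.11 (SE 0.13).

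Olfactory receptor genes encode the odorant-binding G protein-coupled receptors, of which each mature neuron expresses a single allele. Their levels summed to 2511, 2528, 2216 and 2243, in cKO 88.5% of WT, and the cKO libraries were both below the WT libraries. Of 824 receptor genes tested (of 1090 in the table), 96 were lower (11.7%) and 26 higher (3.16%) at an unadjusted p under 0.05, and none passed after adjustment by limma. Over all genes these shares were 4.36% and 4.99%. Both cKO libraries lay below both WT libraries in 270 (32.8%, against 20.1% of all genes) and above them in 133 (16.1%, against 20.5%). The median difference was -0.10, and -0.10 to -0.12 in the 4 pairs of a cKO with a WT library. The same median was -0.06 under quantile normalization and -0.17 by voom. Of the 824, 363 had fewer than 20 reads on average, and receptors with near-identical copies may have shared reads.

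The 3 receptors that fell by voom lie on different chromosomes. Olfr1507, on chromosome 14, was at 18.4, 19.6, 7.02 and 6.96, 2.72-fold lower in cKO (difference -1.32, SE 0.17, limma adjusted p = 0.10, voom adjusted p = 0.0053, range over 21 alternatives 0.0053 to 0.681). Olfr1346, on chromosome 7, was at 7.14, 7.02, 1.73 and 2.41, and Olfr286, on chromosome 15, at 10.5, 9.84, 3.79 and 4.73. In each of the 3 the WT replicates were close and both cKO libraries far lower. Olfr287, a neighbour of Olfr286, was at 2.57, 2.90, 0.220 and 0.433 on 2 to 33 reads.

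By chromosome, the summed level of receptor mRNA was lower in both cKO libraries on 10 of 16 chromosomes, higher on 3 and overlapping on 3. Chromosome 14 was chosen for description after its values were seen. Its receptors summed to 144.6 and 149.0 in WT and to 96.6 and 93.8 in cKO, 64.9% of WT. Of 36 tested there, 14 were lower (38.9%) and 1 higher (2.78%) at an unadjusted p under 0.05 by limma. Of the 788 not on chromosome 14, 82 were lower (10.4%) and 25 higher (3.17%). Over all genes these shares were 4.36% lower and 4.99% higher. Receptors off chromosome 14 summed to 2366, 2379, 2119 and 2149, which is 90.0% of WT.

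Other receptors of chromosome 14 had low values in cKO. Olfr726 was at 11.6, 12.0, 4.73 and 2.80, Olfr727 at 14.2, 12.2, 4.82 and 5.58, and Olfr742 at 5.94, 4.84, 0.934 and 2.75. In all 3 the groups were separate, with differences of -1.46, -1.19 and -1.24. Receptors of chromosomes 15 (9 genes) and X (6 genes) summed to 63.9% and 63.2% of WT, while the 5 of chromosome 8 summed to 149%, at 11.3, 10.8, 16.95 and 15.9. The difference between chromosomes was not tested. In early polysomes, receptors of chromosome 14 summed to 78.2% of WT, and those of chromosomes 15, X and 8 to 68.6%, 65.4% and 152%.

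**Figure D3:**
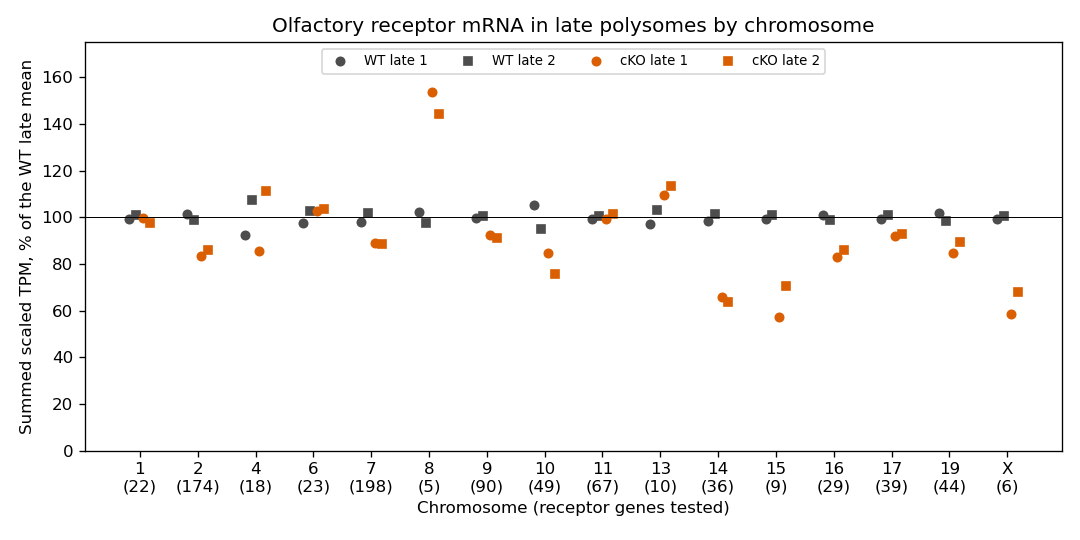
Summed scaled TPM of olfactory receptor genes in each late library, as a percentage of the mean of the WT late libraries, by chromosome with the number of receptor genes tested below it. Grey points are WT and orange points cKO. The cKO libraries stand at 65.8% and 63.9% on chromosome 14 and at 154% and 144% on chromosome 8, where 5 genes were tested.

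Over the whole receptor family, early polysomes did not show the lower sum. It was 99.9% of WT there, with a median difference of 0.01, and 49 receptors were higher and 60 lower at an unadjusted p under 0.05. Over all genes that share was 6.64% in early polysomes, 3.2% higher and 3.44% lower. By the interaction of genotype and fraction, 26 receptors were lower (3.16%) and 9 higher (1.09%) at an unadjusted p under 0.05 by limma, against 1.37% and 1.48% over all genes, and none passed after adjustment. Rtp1 and Rtp2, chaperones that bring receptors to the cell surface, stood at 482, 500.4, 406 and 392 and at 253, 252, 201 and 187 in late polysomes. Both were lower in both cKO libraries (differences -0.30, SE 0.12, and -0.38, SE 0.10). In early polysomes their differences were 0.03 and 0.07, and the interaction had unadjusted p of 0.083 and 0.015. The other export helper named by the rule, Reep4, was higher at 14.6, 18.2, 25.8 and 25.9.

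Trace amine-associated receptors, a separate receptor family of the same epithelium, stood at a sum of 46.6, 46.5, 53.6 and 56.3, and 8 of the 11 tested had fewer than 20 reads on average. Taar6 was at 9.78, 8.31, 15.9 and 12.97 (difference 0.62, SE 0.17, limma adjusted p = 0.38).

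Markers along the neuronal lineage had small differences. Of 22 progenitor genes tested, 4 were higher and 0 lower at an unadjusted p under 0.05, against 4.99% and 4.36% of all genes. Without overlap, 12 were higher and 1 lower, against 20.5% and 20.1% of all genes. The median was 0.14, and 0.09 with no filter on low values. Neurog1, a transcription factor of neuronal precursors, was at 33.2, 32.4, 43.2 and 45.9 (difference 0.43, SE 0.11), and Insm1, a zinc finger factor of the same stage, at 198, 209.6, 229 and 321. In both genes the cKO libraries were above the WT libraries.

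Of 30 immature neuron genes, 6 were lower and 0 higher at an unadjusted p under 0.05, against 4.36% and 4.99% of all genes. The median was -0.10, -0.03 without cKO late replicate 1 and -0.06 without WT late replicate 2. Dcx, a microtubule-associated protein of migrating and growing neurons, was at 200.7, 216, 140.5 and 163 (difference -0.46, SE 0.13). Nhlh1, a transcription factor of newly formed neurons, was at 91.8, 91.4, 68.6 and 63.4 (-0.47, SE 0.11), and Gap43 of growing axons at 543, 425, 411 and 359. In each of these genes both cKO libraries were below both WT libraries. Gng8, another marker of immature neurons, overlapped between the groups at 70.1, 72.2, 98.0 and 65.5. Without overlap, 12 of the 30 genes were lower (40%) and 5 higher (16.7%), against 20.1% and 20.5% of all genes. Nhlh1 did not differ in the same way in early polysomes, where its difference was 0.07 (interaction unadjusted p = 0.0064).

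Mature neuron genes were lower without overlap in 10 of 29 and higher in 1, against 20.1% and 20.5% of all genes. At an unadjusted p under 0.05, 2 of 29 were lower (6.90%), near the 4.36% of all genes. The median was -0.06, -0.12 without cKO late replicate 1, -0.04 without cKO late replicate 2 and -0.10 without scaling. Omp, given above, and Cnga2, the cyclic nucleotide-gated channel of the odour response, at 458, 519, 484 and 479, overlapped between the groups. Gnal, the G protein subunit of the same cascade, was lower in both cKO libraries at 1093, 1193, 973 and 931. None of these lineage genes passed after adjustment by either test.

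**Figure D4:**
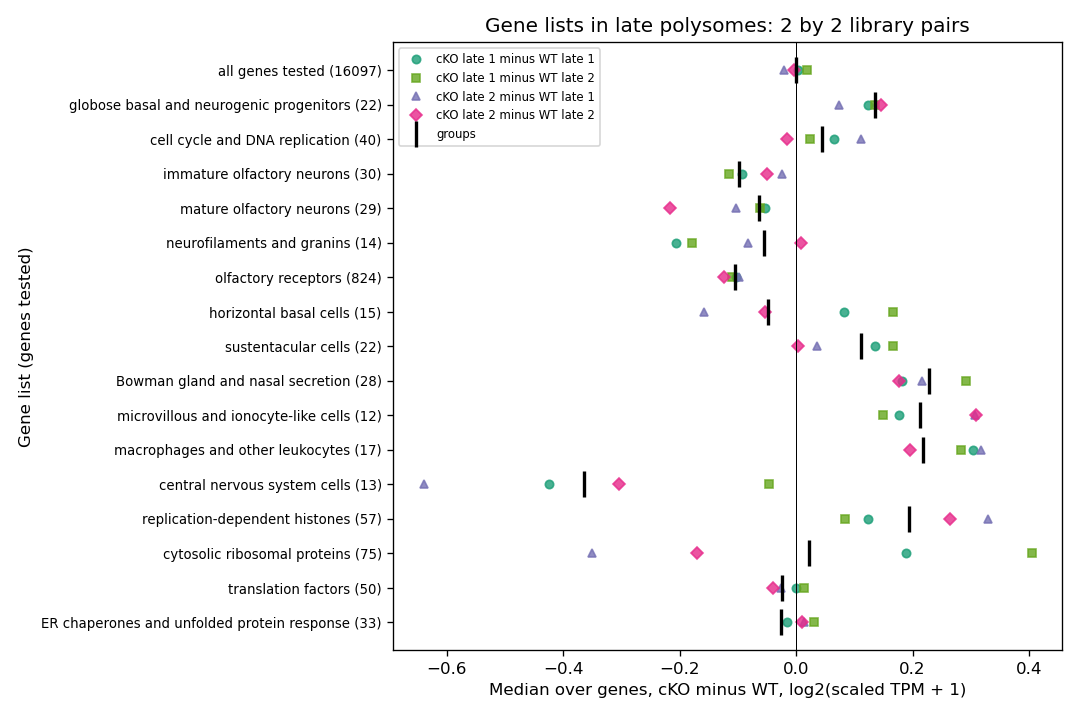
Median difference over the tested genes of each list, cKO minus WT on log2(scaled TPM + 1), for each of the 4 pairs of a cKO and a WT late library (coloured points) and for the group comparison (black bars). Receptors lie at -0.10 to -0.12 in every pair, whereas cytosolic ribosomal protein genes range from -0.35 to 0.40 between pairs.

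Genes of the glands and of secretion had a median of 0.23. Of 28 tested, 4 were higher (14.3%, against 4.99% of all genes) and 0 lower at an unadjusted p under 0.05. Without overlap, 14 were higher (50.0%, against 20.5% of all genes) and 1 lower. Besides Mup4, Lcn11 and Bpifb5, the fourth was Aqp5, a water channel of Bowman gland cells, at 253, 293, 354 and 384 (difference 0.44, SE 0.12). In early polysomes the difference of Aqp5 was 0.02 (interaction unadjusted p = 0.042 by limma). The list's early median was 0.03. There 3 of 28 were higher (10.7%, against 3.2% of all genes) and 0 lower at an unadjusted p under 0.05 by limma. By the interaction 1 of 28 was higher (3.57%, against 1.48% of all genes) and 0 lower. The most abundant member, Bpifb9b, was at 12420.1, 7908, 14776 and 11489, so its groups overlapped. Of 22 sustentacular cell genes, 0 were higher and 1 lower (4.55%, against 4.36% of all genes) at an unadjusted p under 0.05 by limma. Without overlap, 7 were higher (31.8%, against 20.5% of all genes) and 2 lower (9.09%, against 20.1%). Their median was 0.11. That median was -0.008 without cKO late replicate 1, 0.006 under quantile normalization and 0.07 without scaling. The list's summed level was 37553, 32088, 46065 and 40453 for glands and 16774, 17083, 19132 and 18990.2 for sustentacular cells.

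Of 12 microvillous and ionocyte-like genes, 9 were higher without overlap and 0 lower, against 20.5% and 20.1% of all genes. Their median was 0.21, with Ascl3, a transcription factor of such cells, at 41.9, 47.7, 63.7 and 62.7. At an unadjusted p under 0.05 by limma, 1 of these 12 was higher (8.33%, against 4.99% of all genes) and 0 lower. Of 17 macrophage and other leukocyte genes, 8 were higher without overlap (47.1%, against 20.5% of all genes) and 0 lower, with a median of 0.22. At an unadjusted p under 0.05 by limma, 3 of these 17 were higher (17.6%, against 4.99% of all genes) and 0 lower. Lyz2, a lysozyme of macrophages, was at 60.4, 68.0, 99.9 and 88.8 (difference 0.55, SE 0.11, limma adjusted p = 0.26). The list summed to 503, 554, 672 and 657, higher in both cKO libraries, and the part of these cells in the other differences was not tested.

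Central nervous system genes were lower without overlap in 7 of 13 (53.8%, against 20.1% of all genes), with a median of -0.36. At an unadjusted p under 0.05 by limma, 2 of 13 were lower (15.4%) and 1 higher (7.69%), against 4.36% and 4.99% of all genes. The median was -0.17 without cKO late replicate 2, -0.21 without WT late replicate 1, -0.18 with no filter and -0.16 over members of at least 5 TPM. Its summed level was 419, 366, 355 and 311, of which Snap25, a synaptic membrane protein that olfactory neurons also express, made up 237, 199.8, 171 and 152. Slc17a7 and Gad1 of central neurons were at 7.44, 3.89, 3.315 and 1.69 and at 5.10, 1.87, 2.77 and 1.21. Mog, an oligodendrocyte gene, had at most 1 read in a late library. The part of central nervous tissue in these values was not tested.

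Replication-dependent histone genes, which are transcribed during DNA synthesis, had a median of 0.19. Of 57 tested, 11 were higher (19.3%, against 4.99% of all genes) and 2 lower at an unadjusted p under 0.05. Without overlap, 24 were higher (42.1%, against 20.5% of all genes) and 2 lower. Hist1h3h was at 28.7, 27.0, 44.9 and 45.01 (difference 0.67, SE 0.11, limma adjusted p = 0.20) and Hist1h3g at 28.4, 29.4, 44.6 and 47.5, each on 61 to 81 reads. Hist2h2be, also counted in the list but at a far higher level, went the other way, at 336, 276, 191 and 197 (difference -0.65, SE 0.13). Whether each listed gene depends on DNA synthesis in this tissue was not tested. The 40 genes of the cell cycle and DNA replication had a median of 0.04, with 2 higher and 1 lower at an unadjusted p under 0.05, near the 4.99% and 4.36% of all genes. That median was -0.03 without WT late replicate 1, 0.08 without WT late replicate 2 and 0.007 without scaling. Among them Ube2c, which marks mitotic proteins for degradation, was at 57.9, 70.0, 75.3 and 99.3, and Cenpe, a motor of the kinetochore, at 14.8, 13.1, 9.70 and 7.12. Over the alternatives the histone median ranged from 0.08 to 0.32, with the lowest without cKO late replicate 2 and the highest without cKO late replicate 1.

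The genes of translation and protein trafficking were close to all genes. Of 50 translation factors, 0 were higher and 2 lower (4%) at an unadjusted p under 0.05 by limma, with a median of -0.03. Of all genes, 4.99% were higher and 4.36% lower. Eif4e, which binds the mRNA cap, was at 32.7, 33.5, 28.1 and 28.8 (difference -0.21, SE 0.09). Of 75 cytosolic ribosomal protein genes, 1 was higher (1.33%) and 0 lower at the same threshold. Their summed level was 25538, 21944, 28918 and 20509, so replicates differed by more than the genotypes did.

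The endoplasmic reticulum folds receptors and secreted proteins. Of 33 chaperone and unfolded protein response genes, 0 were higher and 1 lower (3.03%) at an unadjusted p under 0.05 by limma. The shares over all genes were 4.99% higher and 4.36% lower. The median of these 33 genes was -0.03. Of 51 translocation and vesicle coat genes, 2 were higher (3.92%) and 0 lower, with a median of 0.02. Tram1, a component of the translocation channel, was at 114, 103, 131 and 143, and Tmed10, a cargo receptor of the early secretory path, at 98.8, 97.9, 111 and 117. CCR4-NOT and decapping genes, which shorten mRNA tails and remove caps, had 0 of 28 at an unadjusted p under 0.05 by limma. Without overlap, 5 were higher and 5 lower (17.9% each, against 20.5% and 20.1% of all genes). Their median was -0.04. Over the alternatives these 3 medians changed sign, from -0.06 to 0.02 for chaperones, -0.02 to 0.04 for translocation and -0.08 to 0.03 for CCR4-NOT genes. By voom no gene of these lists passed after adjustment.

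The late differences of the named genes were set beside the early ones, which come from the same lysate names and are not independent of them. Mup4 differed by 1.92 (SE 0.20) in early and 1.55 (SE 0.20) in late polysomes, Nefl by -1.86 (SE 0.20) and -1.67 (SE 0.20), and Mex3a by -2.55 (SE 0.18) and -2.80 (SE 0.18). All 15 genes called by voom in late polysomes had the same direction in early polysomes, where 9 passed an adjusted p of 0.05 by voom. By limma, Mex3a, Mup4, Nefl and 5430401F13Rik passed in early polysomes (adjusted p = 0.0046, 0.032, 0.032 and 0.045). None of the 15 had an interaction at an unadjusted p under 0.05 by limma, the smallest being 0.069 for Csrnp3. Of the genes named by size, Paqr6 differed between the fractions at -0.16 in early and 1.26 in late polysomes (interaction unadjusted p = 0.037). The interaction called 1 of 16097 genes by limma (0.00621%), Mir6541, and 0 by voom, with 459 (2.85%) and 399 genes at an unadjusted p under 0.05.

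**Figure D5:**
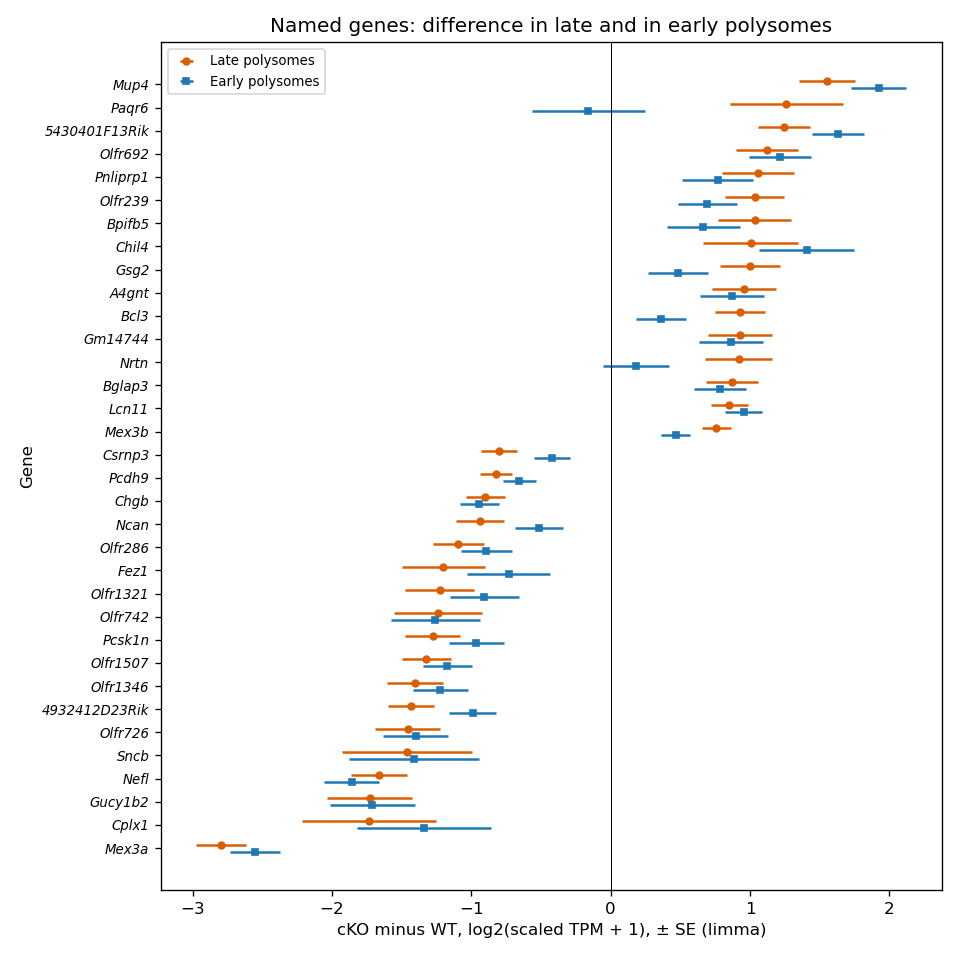
Difference cKO minus WT on log2(scaled TPM + 1) with its standard error from limma, in late (orange circles) and early (blue squares) polysomes, for the genes called by voom and those named by size. Mex3a stands at -2.80 in late and -2.55 in early polysomes, and Paqr6 at 1.26 and -0.16.

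Mir6541 is the other gene that passed by limma in late polysomes and is shown for its call, which rests on 0 or 1 read per library. It was at 6.15 and 5.88 in WT late and at 0 in both cKO late libraries, and by voom its adjusted p was 0.77 (range over the alternatives 0.000521 to 0.773). The mature microRNA lies at chr14:62865610-62865630 (GRCm38.p6, plus strand). Its sequence from RefSeq, 5′ to 3′ with the seed (bases 2 to 8) in capitals, is as follows.
mmu-miR-6541: cACAGGCAaggacuucucaag
The file does not say which part of the locus the reads came from.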

How the data were processed

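The authors deposited a table of TPM with 21765 genes, in which each of the 8 libraries sums to 1000000. The submitters' processing notes name FastQC, cutadapt, STAR, DESeq2 and the mm10 build (GRCm38), with no versions or roles, and the counting is not given in the sources used here. The stranded libraries were made from total RNA with a low-input kit, per the labels' protocols. Groups came from titles. The genotype tag of WT early replicate 2 names the cKO alleles, and its title was followed. That library enters the late comparison through the shared spread, the gene filter and the scaling. It enters the early and interaction values directly.

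Each library was divided by its median ratio (0.931 to 1.062), and log2(scaled TPM + 1), which understates changes of low genes, was fitted with limma 3.58.1 in R 4.3.3 over all 8 libraries and 4 groups, with a mean-variance trend and Benjamini-Hochberg adjustment at 0.05. Late, early and interaction contrasts were taken. Whole reads were inferred from TPM steps for 19783 genes above 0 in at least 2 libraries (100% whole within 0.001 reads) and tested with voom; in a test on simulated data, 98.8% of 19382 genes came back exactly. The symbols of 27 rows had become dates.

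Named genes were Mex3a, genes past the threshold by limma or by voom (mean of at least 10 reads), the 12 highest and 12 lowest differences under the filters given with them, and per list up to 4 with the smallest unadjusted p under 0.05 and the 2 most abundant. Olfr287, Olfr727, Gap43, Gng8, Gnal, Cnga2, Slc17a7, Gad1 and genes near Mex3a were named after their values were seen or as cell type markers. The members and lists were chosen with earlier results of these data known. Positions came from RefSeq GRCm38.p6 and coding lengths from GENCODE on the same build. Alternatives were other pseudocounts (0.1 and 0.5), filters, scalings, designs, voom, and leaving out each library. Figures were drawn with matplotlib.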

Additional observations from a re-analysis of the deposited data

Results flagged for a closer look

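Mir6541 differed between the fractions in the test of the difference itself: the cKO minus WT difference was -2.81 in late and 2.88 in early polysomes, and the interaction was -5.69 (limma, log2(scaled TPM + 1)). Its scaled TPM was 6.15 and 5.88 in WT late, 0 and 0 in cKO late, 0 and 0 in WT early, and 6.02 and 6.67 in cKO early libraries. Each value above 0 is 1 read, and voom on whole reads did not call it.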

How the results depend on the processing

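Mex3a kept its direction in all 21 alternatives (-2.92 to -2.67) and an adjusted p under 0.05 in 19. Leaving out 1 library gave -2.92 to -2.67, with the call lost at -2.80 without WT late replicate 1 and -2.79 without WT late replicate 2. The count of 2 genes was 1 with a pseudocount of 0.1, a mean TPM of at least 5, a mean of at least 10 reads or only the 4 late libraries, 4 with no filter, 5 with no trend and 15 by voom. Leaving out 1 library gave 0 to 13 calls by limma: 0 without either WT late library, 13 without cKO late replicate 1 and 9 without cKO late replicate 2. Where it was 0, 799 and 1240 genes had an unadjusted p under 0.05 (main value 1506, and 799 to 2176 over the libraries left out).

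The single interaction call became 6 with no filter, 2 with no trend, 0 under the filters of 5 TPM and of 10 reads, and 0 by voom, with 326, 433 and 399 genes at an unadjusted p under 0.05. Leaving out 1 library gave 1 to 7. A group left with 1 library was assumed to vary like the others.

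Same-numbered WT and cKO late libraries deviated together only weakly (correlation 0.142, early 0.331), and no label pairs them. With the replicate number as a block, limma called 2 genes over all 8 libraries (1911 at an unadjusted p under 0.05) and 1 over the 4 late libraries (2479). Gad1 turned to 0.0065 without WT late replicate 1, in a range of -1.08 to 0.0065 over the libraries left out. Of 2503 other values for 120 genes, 17 gained and 8 lost the threshold, all 8 being Mir6541. Without scaling, 533 of 1511 genes at an unadjusted p under 0.05 were higher, against 804 of 1506. Of 824 receptors, 363 had under 20 reads on average, which limits their precision. The causes of these changes were not tested.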

Other observations

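Genes near Mex3a on chromosome 3 were counted after several of them had been seen among the higher genes. Within 1 Mb on each side, 71 other genes were tested, of which 12 were higher and 3 lower in cKO late polysomes at an unadjusted p under 0.05 (21.1%, against 9.36% of all genes), and 0 passed after adjustment by limma. Without overlap, 20 were higher (28.2%) and 13 lower, against 20.5% and 20.1% of all genes, and the median difference was 0.03. Ubqln4, which shuttles ubiquitinated proteins to the proteasome, was at 44.0, 48.4, 65.1 and 73.0 (difference 0.57, SE 0.10, limma adjusted p = 0.22). Efna4, an ephrin ligand, was at 7.07, 6.08, 12.2 and 11.1, and Bglap3, an osteocalcin-related gene, at 8.72, 9.53, 16.7 and 18.4. In these 3 genes the cKO libraries were above the WT libraries. Rab25, a small GTPase of epithelial recycling endosomes, was lower, at 58.1, 71.0, 49.0 and 48.8. In early polysomes 3 of the 71 were at an unadjusted p under 0.05 by limma (4.23%, against 6.64% of all genes).

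The difference was also set against coding length for 14687 genes (91.2% of those tested), in 10 equal bins. The median was -0.04 in the bin of the shortest coding sequences (median 417 nt), 0.04 in the fifth bin (1215 nt) and -0.08 in the longest (4551 nt). In the shortest bin it was 0.17 for cKO replicate 1 against WT replicate 2 and -0.24 for cKO replicate 2 against WT replicate 1, so it depended on the libraries paired. In the longest bin it was -0.05 to -0.11 over all 4 pairs.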
